A study of Mus musculus with 23 samples.

Results

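The p53 feedback regulators are p53 itself (Trp53) and target genes of p53 whose products act back on it: Mdm2, Mdm4, Ccng1, Ppm1d, Zmat3 and Trp53inp1. They were taken from this list of 7 genes, and every probe set that the platform annotation gave to 1 of them alone was used. The annotation table used here held such probe sets for 6 of the 7 genes, 15 probe sets among the 45037 tested. Trp53 was not analysed here. A gene with several was represented by the brightest of them, by its mean over the 23 arrays, and the same rule gave 18193 genes in all.

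p53 is a transcription factor that is kept at a low level in unstressed cells, mostly because the ubiquitin ligase Mdm2 marks it for degradation, and it is stabilised and activated after DNA damage. Mdm2 is also a transcriptional target of p53, which closes a negative feedback loop, and several further targets modify the same loop at other points. In the liver the pathway is known for its response to agents that form DNA adducts, with Cdkn1a (p21), an inhibitor of the cell cycle, as its best known target.

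The samples were livers of male mice, hemizygous for human SULT1A1 and SULT1A2 on an FVB/N background (FVB/N-SULT1A1/2), which all groups carried. These sulfotransferases can turn 1-methoxy-3-indolylmethyl alcohol (1-MIM-OH), a breakdown product of a glucosinolate of cruciferous plants, into a reactive ester that binds DNA. Treated mice received 1-MIM-OH orally at 26 mg/kg body mass per treatment, 3 times a week, and were killed 24 h after the last of 10 treatments (21 d, 5 mice) or of 40 treatments (90 d, 6 mice). Vehicle mice received glyceryl trioctanoate alone for the same periods (6 mice at 21 d and 6 at 90 d). The labelled age was 5 weeks in every group, without saying whether this was the start or the end of treatment. The array of 1 further treated mouse of the 21 d group was left out by the submitters for hybridisation artefacts. Each of the 23 arrays (Affymetrix Mouse Genome 430 2.0) measured 1 animal, and mice are numbered within each group as in the labels' titles. Whole liver was measured, so more cells of a type and more RNA per cell cannot be told apart.

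Values are log2 signals as deposited, and a fold change is the treated minus the vehicle mean of these. Array medians lay between 5.53 and 5.61. All 8 hepatocyte markers were measured, and their mean log2 signal was between 13.49 and 13.79 on every array. The control probe sets at the 3' and 5' ends of the Gapdh transcript differed more in treated livers at 21 d, by 1.00 ± 0.51 against 0.33 ± 0.13 log2 in vehicle livers (SD, n = 5 and 6), a difference of 0.67 with p = 0.0216 in a 2-sided exact permutation test. At 90 d the difference was 0.53 ± 0.40 in treated and 0.50 ± 0.15 in vehicle livers (n = 6 each, exact p = 0.909). A wide 3' minus 5' gap is a sign of shortened RNA or labelled product. Treated mice 1, 3, 4 and 5 at 21 d and treated mouse 6 at 90 d were above 0.9 on this measure. Treated mouse 2 at 21 d, at 0.14, stood apart from its group in another way: the mean of 9 Kupffer cell and macrophage markers was 11.12 on its array, against 8.19 to 8.59 in the other treated livers at 21 d, and the mean of 3 measured neutrophil markers was 9.73 against 6.05 to 6.69. Values without these arrays are given beside some of the results that they change.

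Promoter windows are shown first, because p53 acts on its targets through a paired 10-base element. RefSeq windows (250 bases before to 50 after the start, GRCm38.p6) matched 4 of the 6 measured genes. A p53 half-site, searched in both orientations, which for this motif are the same letters, was present in the windows of Ccng1, Mdm2 and Ppm1d and is printed in capitals. Each window is given 5′ to 3′ on the gene's own strand: Ccng1 at chr11:40755237-40755536 (minus strand), Mdm2 at chr10:117710709-117711008 (minus strand) and Ppm1d at chr11:85311004-85311303 (plus strand).
Ccng1: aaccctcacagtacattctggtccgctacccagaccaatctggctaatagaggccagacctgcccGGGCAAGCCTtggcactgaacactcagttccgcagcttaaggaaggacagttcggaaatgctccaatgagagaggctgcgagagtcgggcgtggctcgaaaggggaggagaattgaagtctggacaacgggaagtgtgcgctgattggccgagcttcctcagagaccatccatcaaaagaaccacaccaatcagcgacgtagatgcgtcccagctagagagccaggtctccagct
Mdm2: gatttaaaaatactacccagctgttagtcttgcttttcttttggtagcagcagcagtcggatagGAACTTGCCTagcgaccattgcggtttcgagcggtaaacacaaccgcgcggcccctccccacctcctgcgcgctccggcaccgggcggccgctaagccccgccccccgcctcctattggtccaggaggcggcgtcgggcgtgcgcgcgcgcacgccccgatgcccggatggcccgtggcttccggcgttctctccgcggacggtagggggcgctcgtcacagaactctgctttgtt
Ppm1d: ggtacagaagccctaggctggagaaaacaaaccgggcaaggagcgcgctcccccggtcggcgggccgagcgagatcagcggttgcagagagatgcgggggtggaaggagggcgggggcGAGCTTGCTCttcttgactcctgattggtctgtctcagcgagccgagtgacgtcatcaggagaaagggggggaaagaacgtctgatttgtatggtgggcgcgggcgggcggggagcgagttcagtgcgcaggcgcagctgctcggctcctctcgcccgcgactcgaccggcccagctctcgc
The matches began at position -185 for Ccng1, -186 for Mdm2 and -132 for Ppm1d relative to the annotated start, counted as 0. A half-site was present in 8.36% of 32851 promoter windows of this length, and 2 half-sites with 0 to 13 bases between them in 0.0731%. Neither window of Mdm4 held a half-site, and no window of a measured gene held the full element. The search allowed no mismatch to the 10-base pattern, and sequence outside these windows was not searched. A match is a run of letters in the window and not a measured binding site.

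At 21 d, 1 of the 6 genes rose in treated livers, Ccng1, and none fell. Over all 18193 genes, 0.577% passed as higher and 0.594% as lower (limma, Benjamini-Hochberg adjusted p under 0.05 over 45037 probe sets). At 90 d, 2 of the 6 genes rose, Ccng1 and Zmat3, and none fell, where 0.5% of all genes passed as higher and 0.247% as lower. Trp53inp1 was 1.78-fold higher in treated livers at 90 d and lay at the threshold (adjusted p = 0.05002). The median log2 fold change of the 6 genes was 0.32 at 21 d and 0.72 at 90 d, beside -0.02 and 0.02 for all 18193 genes. The genes fell into 2 sets by their values: Ccng1, Zmat3, Trp53inp1 and Mdm2 had fold changes above 0 at both times, and those of Mdm4 and Ppm1d lay between -0.18 and 0.01.

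**Figure D1:**
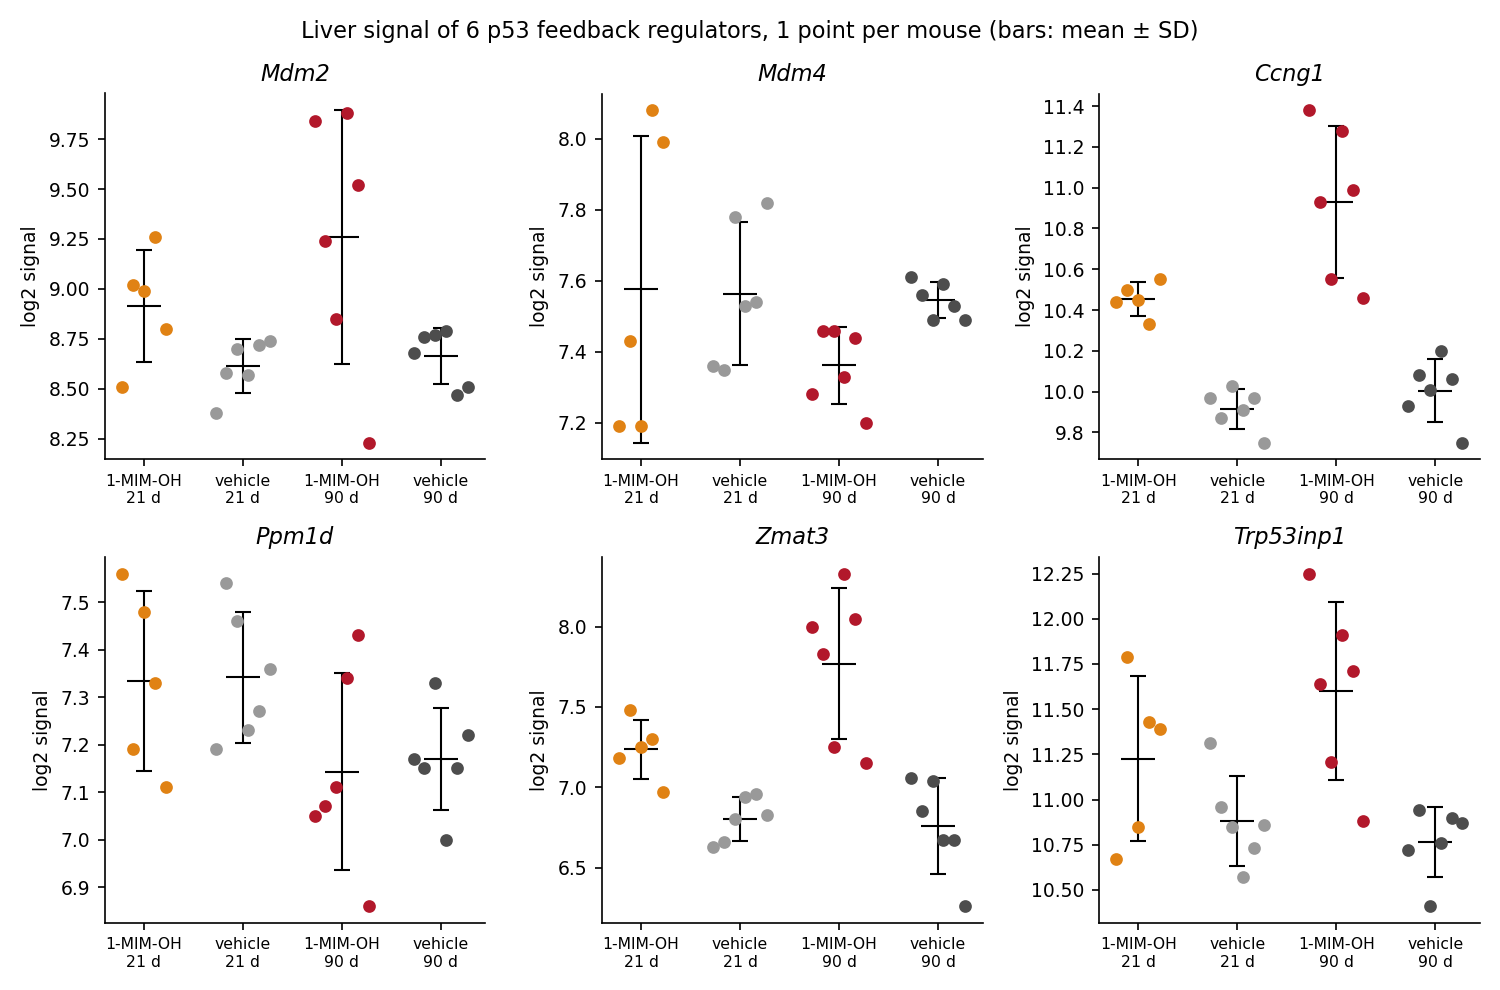
Log2 signal of the representative probe set of each of the 6 measured genes on each array, by group, with 1 point per mouse and bars for the group mean ± SD. Ccng1 and Zmat3 show treated groups that lie wholly above their vehicle groups at both times, and for every gene but Mdm4 the treated 90 d group has the largest SD.

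Ccng1 encodes cyclin G1, a p53 target that brings the phosphatase PP2A to Mdm2. At 21 d its log2 signal was 10.44, 10.50, 10.45, 10.33 and 10.55 in treated livers, against a lowest value of 9.75, a median of 9.94 and a highest of 10.03 in vehicle livers. At 90 d it ran from 10.46 through a median of 10.96 to 11.38 in treated livers, against 9.75, 10.04 and 10.20 in vehicle livers. The groups did not overlap at either time, a property that 1.53% of all genes had at 21 d and 0.967% at 90 d with the treated livers higher. The rise was 0.54 ± 0.12 at 21 d (log2, SE; 1.45-fold, adjusted p = 0.0385) and 0.93 ± 0.12 at 90 d (1.90-fold, adjusted p = 0.000207). The 90 d call held when any 1 array was left out. The 21 d call was lost (adjusted p up to 0.0838) without any 1 of treated mice 1, 3, 4 and 5 or of the 6 vehicle mice at 21 d. Without treated mouse 2 it held, at 0.53 (adjusted p = 0.0266).

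Ccng1 had 2 further probe sets, which differed from the representative one at 21 d. Probe set 1450016_at read 8.94, 9.97, 9.49, 9.15 and 8.62 in treated livers at 21 d, against 8.44 to 8.71 in vehicle livers, and 1450017_at read 8.47, 9.02, 8.69, 8.42 and 8.26 against 7.95 to 8.29. In both, treated mouse 5 lay among the vehicle mice and treated mouse 2 was the highest. The fold changes were 0.64 ± 0.27 (adjusted p = 0.235) and 0.46 ± 0.17 (adjusted p = 0.18), and neither passed. At 90 d both passed, with 1.23 ± 0.25 for 1450016_at (adjusted p = 0.0231) and 1.06 ± 0.16 for 1450017_at (adjusted p = 0.00196). On 1450016_at the treated livers at 90 d ran from 8.57 to 10.82, with mouse 6 below all 6 vehicle mice, whose values were 8.60 to 8.94.

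The 3 Ccng1 probe sets and the Gapdh 3' minus 5' difference were then set side by side. At 21 d, treated mouse 5 had the largest Gapdh difference, 1.45, and the lowest value on both further probe sets. Among the treated mice, mouse 2 had the smallest, 0.14, and the highest value on both, and it also stood apart in immune cell markers. At 90 d, treated mouse 6, at 1.24, had the lowest value on all 3 probe sets. With the Gapdh difference as a covariate, the further probe sets passed at 21 d too, at 1.39 ± 0.23 (adjusted p = 0.00484) and 0.94 ± 0.15 (adjusted p = 0.00366). The representative one was 0.68 ± 0.15 and no longer passed (adjusted p = 0.0619). At 21 d the covariate ran from 0.14 to 1.45 in treated and from 0.09 to 0.49 in vehicle livers, so it could not be fully separated from treatment there. When the 5 arrays over 0.9 were dropped (1 treated liver then remained at 21 d), the 90 d rises were 1.02, 1.51 and 1.22 (adjusted p = 8.51e-05, 1.1e-05 and 1.45e-05). The part of RNA or label length in the level of each probe set was not tested.

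**Figure D2:**
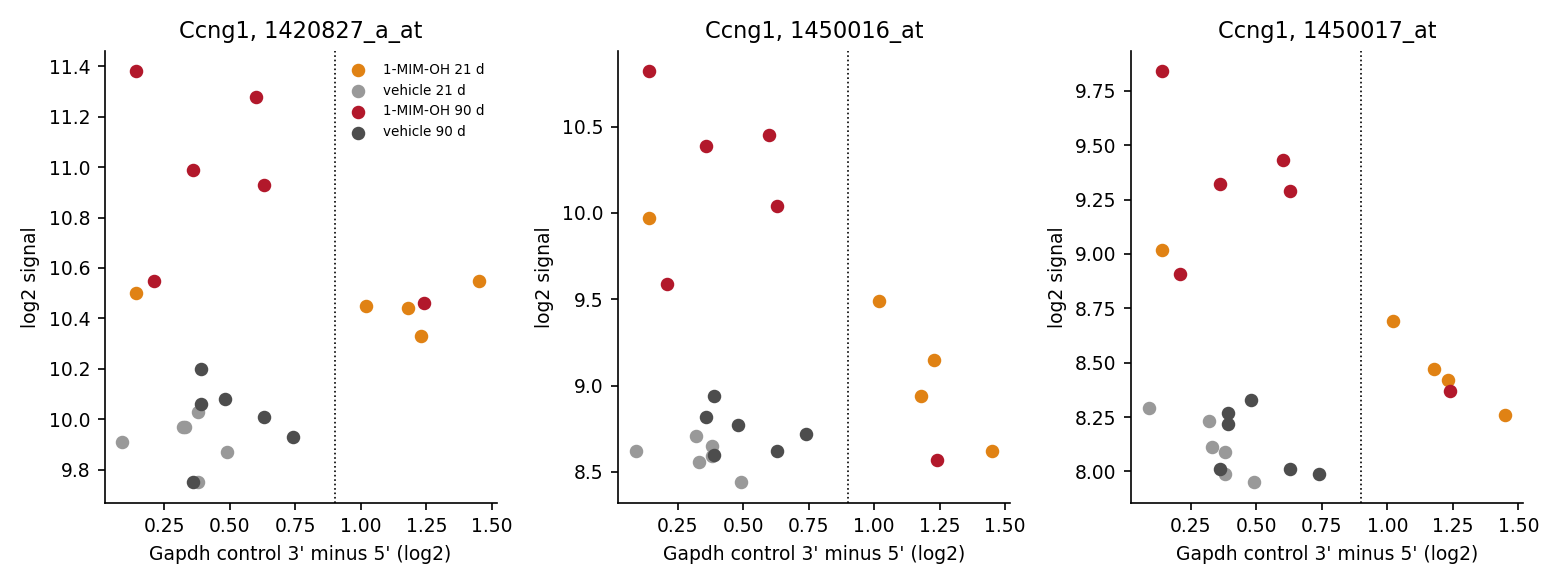
Log2 signal of the 3 Ccng1 probe sets (vertical axes) against the Gapdh 3' minus 5' difference (horizontal axis, log2), with 1 point per array colours for the 4 groups and a dotted line at 0.9. On 1450016_at and 1450017_at the treated arrays with the largest Gapdh difference, up to 1.45, have the lowest signals of their groups.

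Zmat3, a zinc finger protein that binds RNA and is known to act on p53 transcripts and on splicing, had 1 probe set. Its log2 signal at 21 d was 7.18, 7.48, 7.25, 7.30 and 6.97 in treated livers, against 6.63 to 6.96 with a median of 6.82 in vehicle livers. The groups did not overlap, but treated mouse 5 lay next to the highest vehicle mouse, and the fold change of 0.43 ± 0.17 did not pass (adjusted p = 0.208). At 90 d the signal ran from 7.15 through a median of 7.92 to 8.33 in treated livers, against 6.26, 6.76 and 7.06 in vehicle livers. All treated livers were above all vehicle livers, and Zmat3 rose by 1.01 ± 0.16 (2.01-fold, adjusted p = 0.003). Without treated mouse 6 of the 90 d group the rise was 1.13.

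Trp53inp1 encodes a nuclear protein that is known to promote phosphorylation of p53 and takes part in autophagy. At 21 d its log2 signal was 10.67, 11.79, 10.85, 11.43 and 11.39 in treated livers, against 10.57 to 11.31 with a median of 10.86 in vehicle livers. The groups overlapped, and the fold change was 0.35 ± 0.20 (adjusted p = 0.434), or 0.21 without treated mouse 2 (adjusted p = 0.633). At 90 d the signal ran from 10.88 through 11.68 to 12.25 in treated livers, against 10.41, 10.82 and 10.94 in vehicle livers, and mouse 6 was the treated liver that lay within the vehicle range. The fold change was 0.83 ± 0.19 (adjusted p = 0.05002). It passed without treated mouse 6, at 0.98 (adjusted p = 0.00731), and without treated mouse 3 of the 90 d group or treated mouse 1 or 2 of the 21 d group (adjusted p = 0.029, 0.0406 and 0.0256). Leaving out any other 1 array gave an adjusted p between 0.0510 and 0.135. The second probe set, 1416927_at, gave 0.00 at 21 d and 0.14 ± 0.10 at 90 d (adjusted p = 0.697), so the values of this gene rest on 1416926_at.

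Mdm2, the main ubiquitin ligase of p53, did not pass at either time. Its log2 signal at 21 d was 8.51, 9.02, 8.99, 9.26 and 8.80 in treated livers, against 8.38 to 8.74 with a median of 8.64 in vehicle livers. At 90 d it ran from 8.23 through a median of 9.38 to 9.88 in treated livers, against 8.47, 8.72 and 8.79 in vehicle livers. Of the 6 treated livers at 90 d, 5 were above all vehicle livers and mouse 6 was below all of them. The fold change was 0.30 ± 0.20 at 21 d (95% interval -0.12 to 0.72, adjusted p = 0.512) and 0.60 ± 0.19 at 90 d (0.20 to 1.00, adjusted p = 0.216). Without mouse 6 the 90 d value was 0.80 and passed (adjusted p = 0.00706), in a fit where 1.3% of all genes passed in either direction. The other Mdm2 probe sets gave 0.33 ± 0.14 and 0.23 ± 0.10 at 90 d (adjusted p = 0.419 and 0.384).

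Mdm4, a relative of Mdm2 that binds p53 and blocks its transcriptional activity, did not pass either. Its representative probe set, 1460542_s_at, is of a kind whose probes can match several transcripts. At 21 d its log2 signal was 7.19, 7.43, 7.19, 8.08 and 7.99 in treated livers, against 7.35 to 7.82 with a median of 7.54 in vehicle livers, so that the treated livers lay on both sides of the vehicle range. At 90 d it was 7.20 to 7.46 with a median of 7.39 in treated livers, against 7.49 to 7.61 with a median of 7.55 in vehicle livers. All 6 treated livers at 90 d lay below all 6 vehicle livers, which was so for 0.385% of all genes. The fold change of -0.18 ± 0.13 (95% interval -0.44 to 0.08) did not pass (adjusted p = 0.664), nor in a fit of the 90 d arrays alone (adjusted p = 0.278). At 21 d it was 0.01 ± 0.13 (-0.26 to 0.29, adjusted p = 0.979), with a sign that changed with the normalization. Of the other 3 probe sets, 1419558_at gave -0.27 at both times (adjusted p = 0.196 at 21 d and 0.329 at 90 d), 1458223_at gave -0.22 and -0.07 (adjusted p = 0.13 and 0.776), and 1453982_at gave 0.06 and 0.02.

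Ppm1d encodes the phosphatase Wip1, which removes activating phosphates from p53 and from the kinases upstream of it. Its log2 signal at 21 d was 7.56, 7.19, 7.48, 7.33 and 7.11 in treated livers, against 7.19 to 7.54 with a median of 7.32 in vehicle livers. At 90 d it ran from 6.86 to 7.43 with a median of 7.09 in treated livers, against 7.0 to 7.33 with a median of 7.16 in vehicle livers. The groups overlapped at both times. The 95% interval of the fold change was -0.21 to 0.19 at 21 d and -0.22 to 0.17 at 90 d (adjusted p = 0.983 and 0.953). The second probe set gave -0.18 ± 0.09 and 0.03 ± 0.09 (adjusted p = 0.383 and 0.951).

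**Figure D3:**
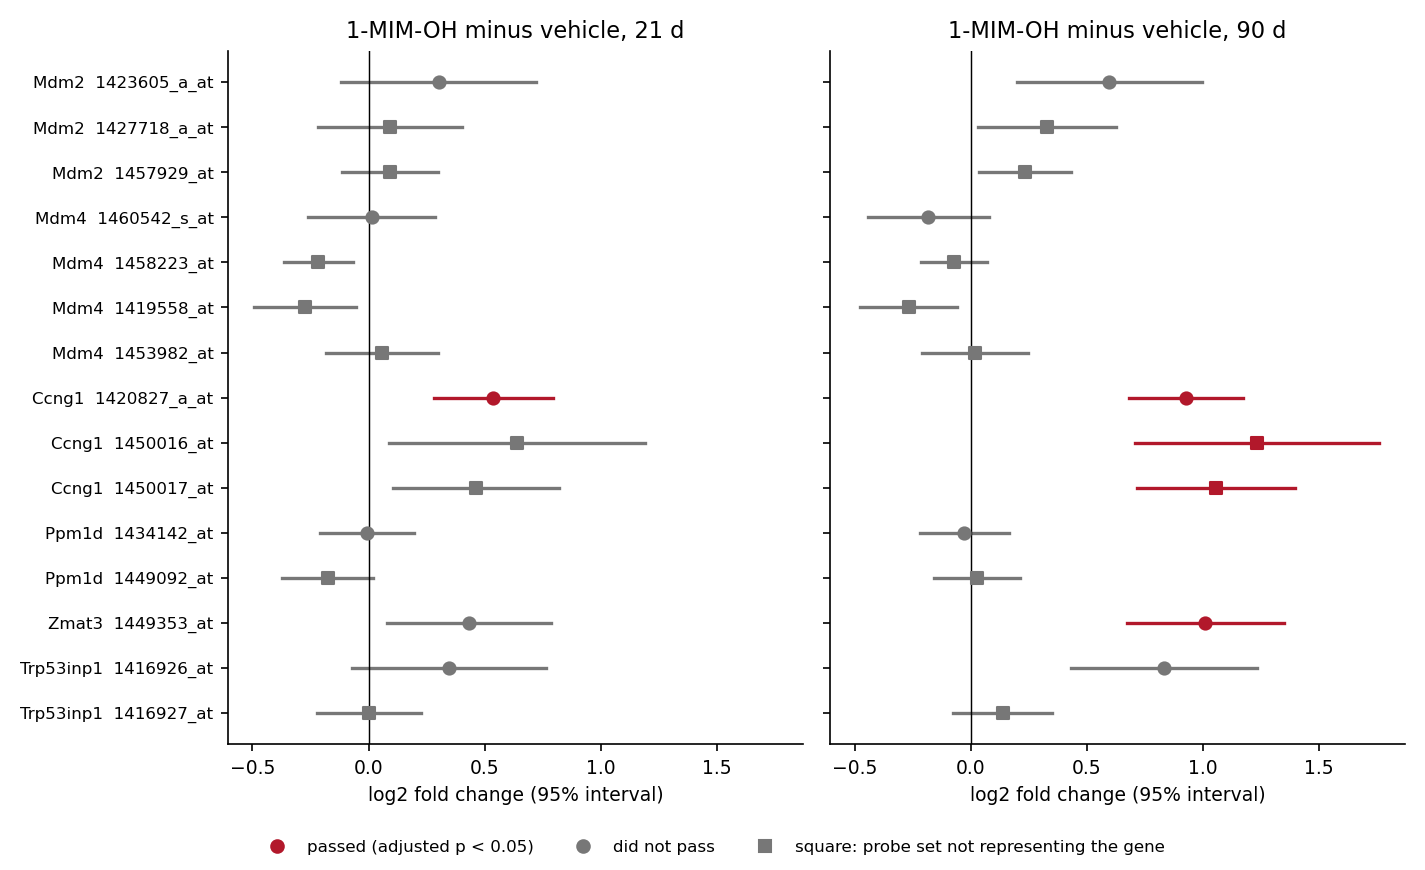
Log2 fold change of treated over vehicle livers (horizontal axis, with 95% intervals) for all 15 probe sets, at 21 d on the left and 90 d on the right, in red where the probe set passed. At 21 d 1 probe set of Ccng1 is red, and at 90 d all 3 of Ccng1 and that of Zmat3.

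The effect of treatment was then compared between 21 and 90 d. The 90 d minus the 21 d effect was 0.39 ± 0.17 for Ccng1, 0.58 ± 0.24 for Zmat3, 0.49 ± 0.28 for Trp53inp1 and 0.30 ± 0.28 for Mdm2. None of these differences passed (adjusted p = 0.498, 0.492, 0.575 and 0.737), and 0% of all genes did. At an unadjusted p under 0.05 in limma, 2 of the 6 genes and 1572 of the 18193 did. The differences were -0.20 ± 0.18 for Mdm4 and -0.02 ± 0.13 for Ppm1d (adjusted p = 0.735 and 0.974). Over 9 alternative settings the difference of effects ran from 0.257 to 0.525 for Ccng1 and 0.404 to 0.65 for Zmat3. It ran from 0.0673 to 0.591 for Trp53inp1 and 0.0114 to 0.398 for Mdm2. Treated mice 1, 3, 4 and 5 at 21 d, but only treated mouse 6 at 90 d, were above 0.9 in the Gapdh difference. The part of RNA or label length in comparisons of 21 and 90 d was not tested.

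Treated livers at 90 d and at 21 d were also compared directly, and none of the 6 genes passed, where 0.0934% of all genes did (2 of the 6 and 2420 of all genes at an unadjusted p under 0.05 in limma). The 90 d minus 21 d difference was 0.48 ± 0.12 for Ccng1 (adjusted p = 0.134) and 0.53 ± 0.17 for Zmat3 (adjusted p = 0.198). Ccng1 passed in this comparison without treated mouse 2 of the 21 d group (0.49, adjusted p = 0.0441), where the share over all genes was also larger, at 4.2%. Both passed without treated mouse 6 of the 90 d group, at 0.57 (adjusted p = 0.0189) and 0.66 (adjusted p = 0.0456), where 1.28% of all genes passed. In vehicle livers at 90 d against 21 d, none of the 6 genes passed, none had an unadjusted p under 0.05, and 0.011% of all genes passed. The fold changes of the vehicle groups ran from -0.17 for Ppm1d to 0.09 for Ccng1.

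The 6 treated livers at 90 d spread widely, and the genes that were high in treated mice tended to be high in the same animals. Mice 1 and 4 had the highest values of Mdm2 and Ccng1, and mouse 6 the lowest of Mdm2, Ccng1, Zmat3 and Trp53inp1. After each group's mean was taken off, Mdm2 and Zmat3 correlated over the 23 arrays with Pearson's r = 0.799 (p = 0.00026, adjusted p = 0.0039) and Spearman's rho = 0.734 (p = 0.00092, adjusted p = 0.0138), from permutations within groups adjusted over the 15 pairs of genes. Without the 2 arrays farthest from the median for Mdm2, r was 0.657, and within the 11 treated and the 12 vehicle arrays it was 0.886 and 0.58. For 4 more pairs r passed and rho did not, each at an adjusted permutation p of 0.0498: Mdm2 and Ccng1 (r = 0.758, rho = 0.502), Ccng1 and Zmat3 (0.696 and 0.363), Mdm2 and Trp53inp1 (0.645 and 0.434), and Ccng1 and Trp53inp1 (0.618 and 0.537). The lowest adjusted permutation p of rho among these 4 was 0.142. Without the 2 arrays farthest from the median for the first-named gene, r of the 4 was 0.564, 0.609, 0.482 and 0.345. In all 4 the relation was stronger within the treated arrays, where r was 0.841, 0.829, 0.828 and 0.759, than within the vehicle arrays, where it was 0.245, 0.304, -0.569 and 0.0264, a difference that was not tested. Zmat3 and Trp53inp1, which did not pass (r = 0.388, adjusted permutation p = 0.281), likewise had r = 0.715 in treated and -0.606 in vehicle arrays. Over the same arrays the correlation of each gene with the Gapdh difference did not pass for any of the 6 (lowest permutation p adjusted over 6 relations, 0.408), with r = -0.487 for Trp53inp1 and -0.399 for Mdm2. Within the treated arrays this r was -0.572 (Trp53inp1), -0.466 (Mdm2), -0.458 (Zmat3), -0.349 (Ccng1), -0.161 (Ppm1d) and 0.19 (Mdm4). Within the vehicle arrays it was -0.0101, 0.299, 0.421, -0.106, 0.57 and 0.049 in that order. Without the 2 arrays farthest from the Gapdh median, r of the first 4 was -0.0958, -0.0851, 0.0947 and -0.0684. Treated mouse 6 at 90 d had a Gapdh difference of 1.24. The part of RNA or label length in these relations was not tested.

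**Figure D4:**
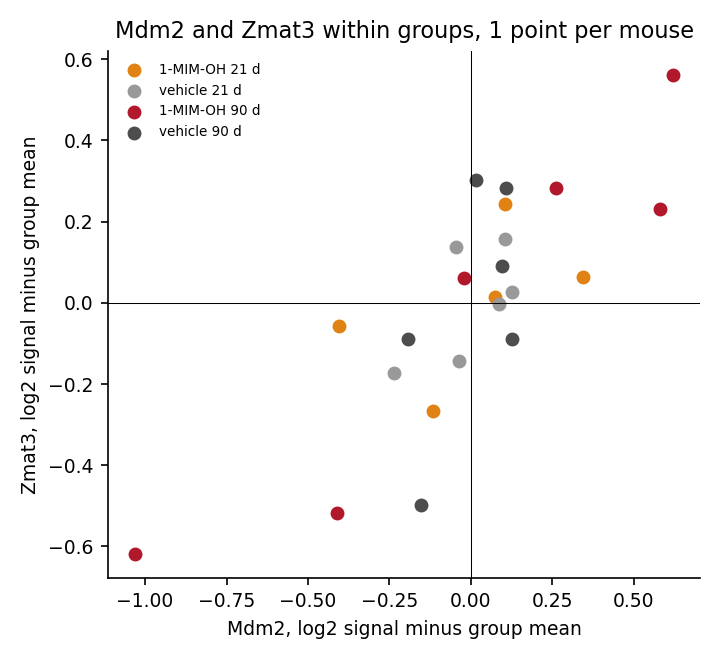
Deviation of Zmat3 from its group mean (vertical axis, log2) against that of Mdm2 (horizontal axis, log2), with 1 point per array and colours for the 4 groups. The points rise together with r = 0.799, and the treated 90 d arrays hold both ends.

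By the same measure, the genes most like each of the 6 were sought among 10843 genes with a mean log2 signal of at least 6. This likeness describes 23 arrays of 1 experiment and was not tested. Zmat3 was most like Aen, an apoptosis-enhancing nuclease and p53 target (r = 0.856, rho = 0.816), followed by Tmem43 (0.836 and 0.776) and Zeb1 (0.835 and 0.751). Mdm2 was most like Nfe2l2 (0.919 and 0.74), Map3k20 (0.852 and 0.723) and Polk, a translesion DNA polymerase (0.839 and 0.814). Ccng1 was most like Phlda3, a p53 target that restrains Akt (0.778 and 0.486), Ces2e (0.765 and 0.591) and Mdm2. The closest to Trp53inp1 were Dcaf4 (0.869 and 0.819), Abca8b (0.812 and 0.681) and Akap10 (0.807 and 0.825). Mdm4 was closest to E430024I08Rik (0.884 and 0.797), Rc3h1 (0.858 and 0.844) and Taf4 (0.836 and 0.704), and Ppm1d to Ube3c (0.834 and 0.757), Vegfb (0.8 and 0.765) and Taok1 (0.792 and 0.776).

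Other genes of the pathway were read from 4 lists. Of 37 measured targets outside the 6 genes (40 listed), 5 rose and none fell at 21 d, and 8 rose and none fell at 90 d. Over all genes, 0.577% passed as higher at 21 d and 0.5% at 90 d. The lists were chosen with earlier results of these data known. The median log2 fold change of the 37 targets was 0.05 and 0.19, beside -0.02 and 0.02 for all genes. Cdkn1a read 8.98, 10.26, 9.59, 9.35 and 8.95 in treated livers at 21 d against 6.41 to 7.17 in vehicle livers, and 9.01 to 11.79 in treated livers at 90 d against 6.41 to 7.27 in vehicle livers. The groups were far apart at both times, and Cdkn1a rose by 2.60 ± 0.36 at 21 d (adjusted p = 0.00135) and 3.67 ± 0.34 at 90 d (adjusted p = 2.13e-06). Phlda3 rose by 1.17 ± 0.20 and 1.84 ± 0.19 (adjusted p = 0.00829 and 1.18e-05). Dglucy rose by 0.72 and Aen by 0.57 at 21 d (adjusted p = 0.00826 and 0.0178). At 90 d Aen rose by 0.80 (adjusted p = 0.000301). Dglucy passed at 90 d whichever 1 array was left out, at 0.89 to 1.08. With each gene's probe sets averaged, Aen was 0.23 at 21 d and no longer passed (adjusted p = 0.178). Eda2r, a p53-induced receptor of the TNF receptor family, rose by 2.47 ± 0.27 and Ddit4l by 1.15 ± 0.20 at 90 d (adjusted p = 1.99e-05 and 0.00691).

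None of the 22 measured ubiquitin ligases, deubiquitinases and other modifiers of p53 (24 listed) passed at either time, and their median fold change was 0.06 at 21 d and -0.01 at 90 d. The largest changes were Usp2, a deubiquitinase of Mdm2, at 0.95 ± 0.39 and Akt1 at 0.32 ± 0.11 at 21 d (adjusted p = 0.235 and 0.139), and Usp2 at 0.69 ± 0.38 and Nfkbia at 0.19 ± 0.11 at 90 d (adjusted p = 0.563 and 0.603). Likewise none of 23 genes upstream of p53 passed, with medians of 0.04 and 0.03. This list was of kinases and acetyltransferases and also held Rad50, a DNA repair gene of neither kind. The largest changes were Prkdc at 0.31 ± 0.14 and Prkcd at -0.25 ± 0.10 at 21 d (adjusted p = 0.301 and 0.21), and Atr at 0.22 ± 0.10 and Rad50 at 0.21 ± 0.07 at 90 d (adjusted p = 0.435 and 0.188). Without treated mouse 2, which stood apart in macrophage and neutrophil markers, 3 genes of these lists passed at 21 d: Usp2 at 1.30 ± 0.37, Usp10, which removes ubiquitin from p53, at 0.42 ± 0.11, and Prkcd at -0.37 ± 0.08 (adjusted p = 0.043, 0.0341 and 0.0157). In that fit 5.47% of all genes passed at 21 d, so that 3 of these 45 genes is near the share over all genes. Among the other p53 targets Pmaip1, a pro-apoptotic gene, then fell by 0.62 ± 0.18 at 21 d (adjusted p = 0.0442), and 12 of the 37 passed at 90 d, where 1.29% of all genes did. Usp10 and Pmaip1 were chosen after their values were seen. The p53 relatives Trp63 and Trp73 gave -0.13 and 0.00 at 21 d and -0.10 and 0.00 at 90 d (adjusted p = 0.406, 0.998, 0.662 and 0.994).

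**Figure D5:**
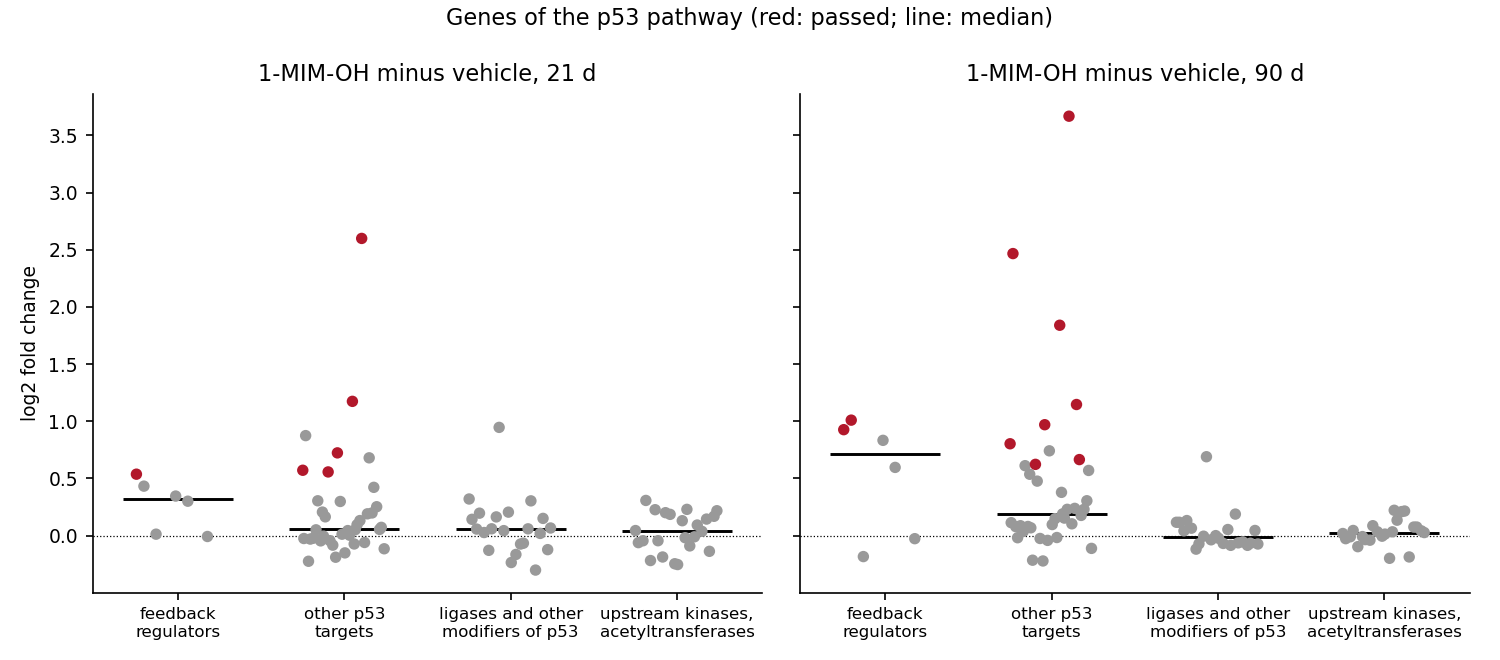
Log2 fold change of treated over vehicle livers (vertical axis) for the 6 measured feedback regulators and the p53 pathway lists other than the p53 relatives. The left side is 21 d and the right side 90 d, with 1 point per gene, a line at the median and red where a gene passed. Red points are found among the feedback regulators and the other p53 targets, up to 3.67 for Cdkn1a at 90 d, and none among the ligases and modifiers or the upstream kinases and acetyltransferases.

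Markers of 8 liver cell types were read beside these results, and no marker passed at 21 or 90 d in the main fit. Single alternatives changed a few, named after their values were seen. Reln (stellate cell) passed at 21 d with the Gapdh covariate, at -0.61 (adjusted p = 0.0182). Krt7 (cholangiocyte) passed at 90 d without vehicle mouse 3, at 0.47 (adjusted p = 0.0253). Cd79b (B cell) was 0.98 at 21 d without arrays over 0.9, where 1 treated liver remained. All 9 Kupffer cell and macrophage markers lay below 0 at 21 d, with a median fold change of -0.40 and a list mean of 8.19 to 11.12 in treated livers against 8.54 to 10.62 in vehicle livers. The highest treated value was that of mouse 2, and without it the median was -0.96, with a list mean of 8.19 to 8.59 in treated livers. Vsig4, a receptor of Kupffer cells named here after its value was seen, then fell by 1.21 ± 0.31 (adjusted p = 0.0284). In that fit 5.47% of all genes passed at 21 d. Without vehicle mouse 1, which had the highest vehicle value, the median at 21 d was -0.17. At 90 d all 9 lay above 0, with a median of 0.35 and a list mean of 8.41 to 10.10 in treated livers against 8.33 to 9.83 in vehicle livers. This median ran from 0.15 (without treated mouse 3) to 0.54 (without vehicle mouse 2) with 1 array left out.

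The 3 measured neutrophil markers lay above 0 at 21 d with a median of 0.16, a direction that rested on treated mouse 2. Without it all 3 lay below 0, with a median of -0.60 and a list mean of 6.05 to 6.69 in treated livers against 5.90 to 8.10 in vehicle livers. At 90 d all 3 lay above 0 with a median of 0.88, which ran from 0.48 (without treated mouse 6) to 1.25 (without vehicle mouse 2). The group ranges overlapped for both lists, with and without treated mouse 2, and their part in the levels of the feedback regulators was not tested.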

How the data were processed

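Liver RNA of 23 mice was measured on 1 Affymetrix Mouse Genome 430 2.0 array each, after biotin labelling from the 3' end, per the labels' protocols. The deposited values are log2 signals from 2.23 to 15.41. Partek and RMA were used, per the submitters' processing notes, with versions and settings not given in the sources used here, and the log2 base was inferred from the values. RMA brings arrays to a common distribution, so a shift shared by all genes would not show. No raw scans were used, so background could not be assessed, and precision is limited by how many arrays there are.

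Of 45101 probe sets, 64 controls were left out. The platform annotation gave 34945 probe sets 1 gene, 932 several and 9160 none. The 4 group means were fitted with limma 3.58.1 in R 4.3.3 (lmFit, eBayes, 19 residual degrees of freedom, Benjamini-Hochberg over 45037 probe sets, passing at an adjusted p under 0.05). P-values set a difference against the spread between arrays, 1 per animal, so variation of animals and of arrays could not be told apart. Correlations used deviations from group means and 100000 permutations within groups (numpy 2.4.6), and control probe sets were compared with 2-sided exact permutation tests (scipy 1.17.1). The fit was tested on simulated data.

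All probe sets of the members were named, the 3 genes most like each member, up to 4 passing genes of each pathway list per time or the 2 with the largest change, and Cdkn1a and Phlda3. The pathway lists were other p53 targets, modifiers of p53, upstream kinases and acetyltransferases with Rad50 added, and p53 relatives. The marker lists were of hepatocytes, Kupffer cells and macrophages, neutrophils, T and NK cells, B cells, cholangiocytes, stellate and endothelial cells. The members and lists were chosen with earlier results of these data known. Alternatives changed the normalization, filter, variance model, arrays fitted, probe set rule, covariate and block. Promoter sequences are from RefSeq (GRCm38.p6).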

Additional observations from a re-analysis of the deposited data

Results flagged for a closer look

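Single arrays lay far from the others of their group, by the gap to the nearest array over the group's range, in 9 of 120 groups of values checked, where chance gives about 1 group in 20. On the array of treated mouse 2 at 21 d, 3 lists of immune cell markers were high: the Kupffer cell and macrophage mean was 11.12 (others 8.19 to 8.59), the neutrophil mean 9.73 (others 6.05 to 6.69) and the T and NK cell mean 6.02 (others 5.33 to 5.49). Among genes of the p53 lists, Cdkn1a was 7.27 in vehicle mouse 3 at 90 d (others 6.41 to 6.72), and Trp73 was 5.29 in the same mouse (others 5.52 to 5.64). Nfkbia was 12.6 in treated mouse 5 at 90 d (others 12.15 to 12.3) and 12.57 in vehicle mouse 1 at 21 d (others 12.12 to 12.25). In vehicle livers at 90 d, the B cell marker mean was 5.65 in mouse 6 (others 5.14 to 5.30) and the endothelial marker mean 7.44 in mouse 5 (others 7.81 to 8.01). None of the 6 feedback regulators had such an array in any group.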

How the results depend on the processing

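Over the 10 alternative settings, all fold changes of Ccng1, Zmat3, Trp53inp1 and Mdm2 in treated over vehicle livers stayed above 0 at both times, and the 90 d calls of Ccng1 and Zmat3 held in each. At 21 d, 0 members passed with each gene's probe sets averaged (Ccng1 0.55, adjusted p = 0.112), with the Gapdh covariate, and with the replicate block (Ccng1 0.48, adjusted p = 0.0696). With 1 array left out 0 to 1 passed, where 0.407% to 5.47% of all genes did. Ccng1 was 0.58 at 21 d without arrays over 0.9, and whether it passed there is not given, because 1 treated array was left. Without arrays over 0.9, treated mouse 2, which stood apart in immune cell markers, was the only treated array left at 21 d, and it was assumed to vary like the other groups. At 90 d, 4 passed without arrays over 0.9, where 2.37% of all genes did. With 1 array left out 2 to 4 passed at 90 d, where 0.368% to 1.3% of all genes did. In treated livers at 90 d over 21 d, 0 to 2 passed with 1 array left out, where 0.033% to 4.2% of all genes did. Trp53inp1 at 90 d also passed with quantile normalization, the dim filter, array weights and the covariate (adjusted p = 0.0492, 0.0331, 0.0148 and 0.0127). Of the other p53 targets, 3 passed at 21 d with the mean of probe sets, where 1.32% of all genes did, and Aen was one of those lost. Without arrays over 0.9, 14 passed at 90 d, where 2.37% of all genes did. With 1 array left out 4 to 6 passed at 21 d and 8 to 12 at 90 d, beside the same shares of all genes as above. Of the modifiers 0 to 2 and of the upstream kinases 0 to 1 passed at 21 d with 1 array left out. Probe sets passing in the whole table ran from 91 (block) to 2265 (without treated mouse 2) at 21 d, against 431, and from 114 (without vehicle mouse 5) to 761 (without arrays over 0.9) at 90 d, against 226. In treated livers at 90 d over 21 d they ran from 2 (arrays of these groups alone) to 77 (without arrays over 0.9), against 34, and with 1 array left out from 10 (without treated mouse 2 at 90 d) to 1644 (without treated mouse 2 at 21 d), with 488 without treated mouse 6 at 90 d. The difference of effects had 0 in the alternatives that fitted it, except 53 without treated mouse 2 at 21 d and 6 without arrays over 0.9.

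These fold changes took the opposite sign. Mdm4 at 21 d was -0.00414 (quantile), -0.0355 (array weights), -0.105 (mean of probe sets), -0.0668 (covariate) and -0.133 (without arrays over 0.9). Ppm1d at 21 d was 0.00467 (median centring), 0.0264 (array weights) and 0.00207 (covariate). Without arrays over 0.9, Ppm1d was 0.03 at 90 d, 0.182 for the difference of effects and 0.01 in treated livers at 90 d over 21 d, where Trp53inp1 was -0.046. At 21 d there, where the values are those of treated mouse 2 alone over the vehicle mice, Usp2 was -0.463, Prkcd 0.205 and Trp73 -0.00333, and at 90 d Prkdc was -0.034 and Trp73 -0.00133. With the mean of probe sets, Ppm1d was 0.0917 for the difference of effects, Mdm2 -0.005 in vehicle livers at 90 d over 21 d, Trp73 -0.0507 at 21 d and Trp63 0.0471 at 90 d. Zmat3 was 2.1e-05 in vehicle livers at 90 d over 21 d with the covariate. Trp73 was -0.000222 at 21 d with the block, and at 90 d -0.00333 (centring), -0.00109 (quantile) and -0.0311 (weights), and Prkcd -0.00116 (quantile). The cause of these changes was not tested.

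With 1 array left out, fold changes that crossed 0 ran from -0.113 to 0.109 (Mdm4, 21 d), -0.0642 to 0.0483 (Ppm1d, 21 d), -0.084 to 0.03 (Ppm1d, 90 d), -0.0763 to 0.0377 (Ppm1d, difference of effects), -0.061 to 0.033 and -0.105 to 0.0547 (Mdm4 and Zmat3, vehicle livers), -0.0292 to 0.123 (Nfkbia, 21 d), -0.038 to 0.056 (Trp73, 21 d), -0.0693 to 0.0447 (Trp73, 90 d), -0.036 to 0.168 (Prkdc, 90 d) and -0.0173 to 0.0547 (Prkcd, 90 d). The Gapdh 3' minus 5' difference between treated and vehicle livers ran from -0.110 (without treated mouse 6) to 0.110 at 90 d and from 0.561 to 0.888 at 21 d.

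No label says that mouse numbers pair animals, and the main fit did not pair them. Over 33 same-numbered pairs the correlation of deviations ran from -0.459 to 0.462, over 0.1 in 5. Differently numbered pairs were not compared, so these values cannot tell whether the numbers pair animals.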
